A study of Mus musculus with 2 samples.

Results

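The 39 Hox genes of the mouse lie in 4 clusters, HoxA to HoxD, and their chromatin was examined in basal cells of skin epidermis after ablation of the basal lineage and in control epidermis. The members are the ATAC-seq peaks inside 1 fixed window per cluster on mm10: chr6:52150000-52270000 for HoxA, chr11:96190000-96375000 for HoxB, chr15:102915000-103045000 for HoxC and chr2:74660000-74775000 for HoxD. These windows held 93 of the 84594 distinct peaks of the series, with 23 in HoxA, 25 in HoxB, 25 in HoxC and 20 in HoxD. The 100 kb on either side of each window held a further 54 peaks, which are described apart.

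The series has 2 libraries, 1 per group, each from 50000 sorted cells. The ablation library carried the genotype label Basal lineage ablation, and the control library was labelled WT. Cells of both groups came from K14 lineage tracing and were sorted for high α6 integrin, for absence of CD34 and Lrig1, and for the YFP, GFP and RFP reporters. The labels used here do not give the strain, the age, the agent of ablation, the time after it or the number of animals pooled. In ATAC-seq a transposase cuts and tags DNA where chromatin is open, and the tagged fragments are sequenced. The table's experimental column was taken as ablation because its other column is named as the control, so every direction given here rests on that reading of the column names. A single library stands for each group, so the data hold no replicate error and no difference could be tested. Every interval below is a 95% interval of the read counts and covers counting error only. In cells measured in bulk, a larger share of cells with a site open and a site that is more open in each cell cannot be told apart.

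Hox genes code for homeodomain transcription factors that give cells their place along the body axis. Within a cluster the genes stand in the order of the body regions in which they act, from group 1 at the anterior end to group 13 at the posterior end, and genes with the same number in different clusters are paralogues. Polycomb proteins keep the genes closed outside their regions, trithorax proteins keep them open within, and cells of adult skin retain part of this code as a memory of position. Hoxc13 has a further role in skin, in the differentiation of hair and nail.

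The clusters also carry microRNA genes, and their mature sequences are shown because the families recur at matching positions of different clusters. RefSeq (GRCm38.p6) gave 6 microRNA genes in the windows. Each sequence runs 5′ to 3′ with the seed, bases 2 to 8, in capitals.
miR-10a-5p (HoxB, next to Hoxb4): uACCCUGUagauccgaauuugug
miR-10b-5p (HoxD, in Hoxd4): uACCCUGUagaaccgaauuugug
miR-196a-5p (HoxB, upstream of Hoxb9, and HoxC, upstream of Hoxc9): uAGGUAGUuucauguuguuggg
miR-196b-5p (HoxA, upstream of Hoxa9): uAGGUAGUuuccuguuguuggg
miR-615-3p (HoxC, in Hoxc5): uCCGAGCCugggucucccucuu
The miR-10 pair shares the seed ACCCUGU and differs by U12A, counted from the 5′ end of miR-10a-5p. The miR-196 pair shares the seed AGGUAGU and differs by A12C, counted from the 5′ end of miR-196a-5p. Of the 6 microRNA genes, 2 lay inside a peak (Mir196b and Mir615). The other 4 lay outside, at 985 bases from the nearest peak for Mir10a, 2941 for Mir196a-2, 3844 for Mir10b and 3955 for Mir196a-1.

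Promoter windows are shown for starts that the results turn on: the strongest start of HoxD (Hoxd11, with 2 starts in the table), starts with higher signal in the ablation library (Hoxd10 and Hoxa11) and starts with no peak (Hoxa5 and Hoxb8). Hoxd11 came from a rule on signal, and the others were picked after their values were seen. Each is 300 bases of RefSeq promoter sequence (GRCm38.p6), 250 before and 50 after the start, on the strand of the gene. The windows are chr2:74679308-74679607 and chr2:74682073-74682372 on the plus strand for Hoxd11, chr2:74691641-74691940 on the plus strand for Hoxd10, chr6:52245761-52246060 on the minus strand for Hoxa11, chr6:52204538-52204837 on the minus strand for Hoxa5 and chr11:96281655-96281954 on the plus strand for Hoxb8. Capitals mark matches on either strand to the AP-1 motif (TGANTCA), the homeodomain core (TAATTA), the PBX-HOX motif (TGATNNAT) and the TATA box (TATAAA).
Hoxd11, upstream start: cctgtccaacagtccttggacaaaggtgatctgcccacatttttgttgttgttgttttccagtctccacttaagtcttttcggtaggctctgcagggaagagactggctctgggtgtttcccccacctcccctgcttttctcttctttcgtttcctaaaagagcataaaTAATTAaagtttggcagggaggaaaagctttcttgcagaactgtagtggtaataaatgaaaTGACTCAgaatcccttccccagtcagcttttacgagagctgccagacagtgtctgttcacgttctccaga
Hoxd11, downstream start: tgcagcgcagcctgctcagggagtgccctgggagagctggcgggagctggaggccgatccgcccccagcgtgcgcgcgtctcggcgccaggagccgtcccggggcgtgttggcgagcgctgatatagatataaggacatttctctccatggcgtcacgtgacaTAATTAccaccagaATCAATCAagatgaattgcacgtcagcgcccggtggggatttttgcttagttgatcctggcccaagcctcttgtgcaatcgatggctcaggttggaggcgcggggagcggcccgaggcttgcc
Hoxd10: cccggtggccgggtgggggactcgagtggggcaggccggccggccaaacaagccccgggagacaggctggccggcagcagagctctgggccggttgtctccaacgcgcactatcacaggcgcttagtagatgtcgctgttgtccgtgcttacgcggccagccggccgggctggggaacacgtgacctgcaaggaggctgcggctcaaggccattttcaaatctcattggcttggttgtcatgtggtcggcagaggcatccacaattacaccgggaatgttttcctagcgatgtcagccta
Hoxa11: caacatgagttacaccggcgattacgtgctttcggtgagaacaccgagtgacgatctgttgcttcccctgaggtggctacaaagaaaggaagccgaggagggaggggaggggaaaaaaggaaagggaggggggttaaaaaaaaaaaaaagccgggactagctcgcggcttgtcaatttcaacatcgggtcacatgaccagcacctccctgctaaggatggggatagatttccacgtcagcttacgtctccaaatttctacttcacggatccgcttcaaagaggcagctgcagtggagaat
Hoxa5: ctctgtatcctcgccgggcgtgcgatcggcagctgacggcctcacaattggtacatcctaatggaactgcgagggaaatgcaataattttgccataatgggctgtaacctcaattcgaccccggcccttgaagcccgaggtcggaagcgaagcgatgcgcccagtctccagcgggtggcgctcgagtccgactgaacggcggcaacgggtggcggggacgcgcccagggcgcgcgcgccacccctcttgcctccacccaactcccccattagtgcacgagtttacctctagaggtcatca
Hoxb8: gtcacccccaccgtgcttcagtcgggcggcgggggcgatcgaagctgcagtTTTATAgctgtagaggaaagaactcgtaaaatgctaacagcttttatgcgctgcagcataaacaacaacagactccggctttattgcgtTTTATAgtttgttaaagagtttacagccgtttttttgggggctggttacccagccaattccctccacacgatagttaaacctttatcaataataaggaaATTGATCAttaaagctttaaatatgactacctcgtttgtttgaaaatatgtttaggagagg
The upstream Hoxd11 window holds a TAATTA and an AP-1 match, and the downstream window holds a TAATTA and a PBX-HOX match. The Hoxb8 window, which no peak overlapped, holds a PBX-HOX match and 2 TATA matches. No marked matches overlap within these windows, and the Hoxd10, Hoxa11 and Hoxa5 windows hold none of the motifs.

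The promoter table gave 24 windows for 22 of the 39 Hox genes. AP-1 was found in 1 of the 24 and in 7.81% of all 32851 promoter windows of the same length. The TAATTA core was found in 2, against 5.29% of all windows, the PBX-HOX motif in 4, against 8.85%, and the TATA box in 4, against 13.6%. The core of the CTCF motif was found in 0 of the 24 and in 2.43% of all. Matches are descriptions of these letters only. Of the 24 windows 14 overlapped a peak, which is 58.3%, against 45.8% of all promoter windows. The 14 had a median of 20 CG dinucleotides and the other 10 had 9.5, against 21 and 3 for all windows with and without a peak. Hoxa5 goes the other way, with 29 CG and no peak, while the upstream Hoxd11 window had 4 CG and overlapped a peak.

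Signal is given in normalized reads, the unit deposited by the authors, in which 1 read was worth 0.907 in the ablation library and 0.706 in the control library. Nuclear peaks held 12463908 reads in the ablation library and 17056996 reads in the control library. Of all reads in peaks, mitochondrial DNA made up 31.2% for ablation and 7.31% for control; whether this moved any Hox value was not tested. It sets how the libraries can be scaled: dividing by the total of the whole table multiplies every ratio of ablation to control by 0.790 and shifts the median log2 ratio of all peaks by −0.34, while dividing by the total over nuclear peaks multiplies it by 1.06. Ratios below are on the deposited scale, and a statement on the side of 1 gives the other scalings where they turn it. All 7 basal keratinocyte markers had a peak above the minimum used below, with summed signals of 10893 in the ablation library and 11385 in the control library. Of 8 fibroblast markers 5 had such a peak, with summed signals of 542 in the ablation library and 492 in the control library, and none was found at Col1a2, Col3a1 or Lum. Such peaks were present at 4 of 6 melanocyte markers, not at Tyr or Tyrp1, with sums of 1712 in ablation and 1921 in control. Pmel alone gave 1481 in ablation and 1648 in control. For immune markers 3 of 4 had one, not Cd207, with 98.9 in ablation and 82.6 in control. For endothelial markers 3 of 4 had one, not Cdh5, with 2040 in ablation and 1976 in control. Pecam1 alone gave 1838 in ablation and 1887 in control. All 4 hair follicle markers, of which Hoxc13 is one, had such a peak; without Hoxc13 the other 3 summed to 935 in the ablation library and 723 in the control library. Single markers moved within these sums. Among the basal keratinocyte markers the ratio of ablation to control was 1.22 (1.14 to 1.31) at Krt5. It was 0.809 (0.769 to 0.851) at Itga6, 0.809 (0.744 to 0.880) at Col17a1 and 0.909 (0.842 to 0.980) at Itgb4. At Krt14, Krt15 and Trp63 the interval included 1. Of the 18 markers of other cell types with such a peak, Hoxc13 left out, 6 had an interval of the ratio above 1. These were Prrx1, Twist2, Csf1r, Tie1, Sox9 and Lgr5, and 2 had an interval below 1 (Dct and Pmel). Over all single nuclear peaks the interval lay above 1 at 15.2% and below 1 at 17.2%, while a marker can sum several peaks. These marker counts and ratios are on the deposited scale, and the counts by other scalings are not given. The ratio was 2.69 (2.07 to 3.54) at the endothelial gene Tie1, 1.80 (1.55 to 2.104) at the hair follicle gene Sox9 and 1.72 (1.21 to 2.45) at the hair follicle stem cell gene Lgr5. Their part in the Hox values was not tested.

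Peaks were dense in the Hox windows. They held 16.9 peaks per 100 kb, against 3.19 over the nuclear chromosomes, and peaks covered 13.5% of their length, against 2.03%. HoxA and HoxC had 19.2 peaks per 100 kb each, HoxD had 17.4 and HoxB had 13.5. The flanks were sparser than the windows they border, with 7 peaks per 100 kb beside HoxA, 8.5 beside HoxB, 9.5 beside HoxC and 2 beside HoxD. The longest stretch with no peak was 47.4 kb, between Hoxb13 and Hoxb9 (chr11:96203607-96251005). In the other clusters it was 16.2 kb in HoxA, from Hoxa4 to Hoxa6 across Hoxa5, 15.4 kb in HoxD and 11.2 kb in HoxC.

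Across the 93 window peaks the ablation library ranged from 4.54 to 801 normalized reads with a median of 90.7, and the control library ranged from 3.53 to 934 with a median of 82.6. Over all nuclear peaks the medians were 56.2 in the ablation library and 53.6 in the control library. Per kb of peak, the median mean signal was 144 at Hox peaks and 106 at all nuclear peaks. Hox peaks were thus stronger than the middle of all peaks in both libraries. Peaks within 1 kb of a Hox gene start made up 50.5% of them. In all, 54.8% of the Hox peaks lay no further than 1 kb from an end of any protein-coding gene, against 18.1% of all nuclear peaks. Set against such gene-end peaks, those at Hox starts were weaker. The median mean signal was 131 at the 47 peaks at Hox starts and 214 at all gene-end peaks. Per kb of peak these medians were 159 and 226.

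**Figure D1:**
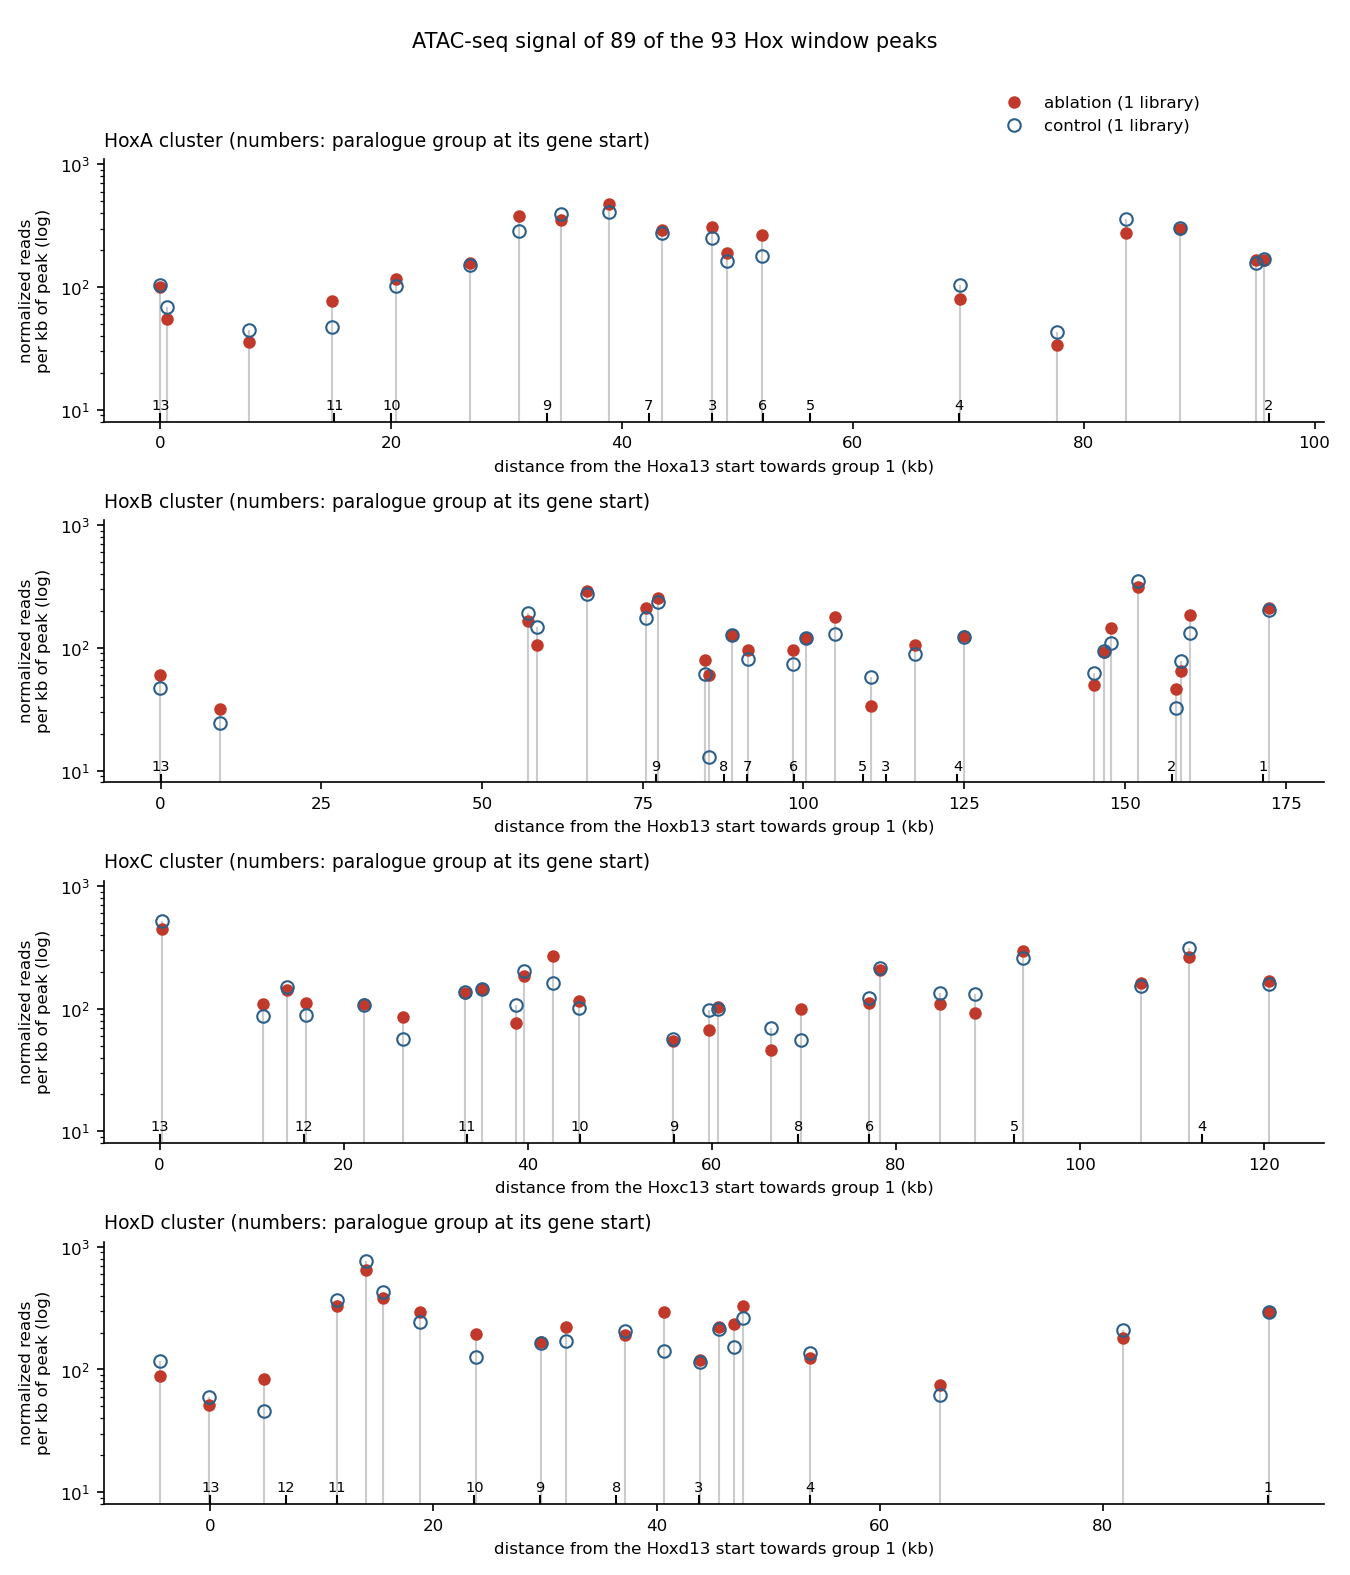
ATAC-seq signal in normalized reads per kb of peak (log axis) for 89 of the 93 Hox window peaks, by distance from the group 13 gene start of its cluster (kb), with the ablation library as filled red circles and the control library as open blue circles. Ticks carry the paralogue group at gene starts; the strongest peaks lie at Hoxd11 and Hoxc13, and HoxB has an empty stretch of 47.4 kb after group 13.

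The strongest peak of HoxD, and of all 4 clusters, lay at the downstream Hoxd11 start (chr2:74681564-74682791), the window with the TAATTA and PBX-HOX matches above. It had 801 normalized reads in the ablation library and 934 in the control library, a ratio of 0.858 (0.787 to 0.935). Hoxd11 acts with Hoxa11 in the forearm and kidney. Its mean signal ranked at the 98.7th percentile of nuclear peaks. The next peaks of HoxD were the Hoxd8 peak, with 269 in the ablation library and 292 in the control library, and a peak in Haglr, a non-coding RNA gene beside Hoxd1, with 249 in the ablation library and 291 in the control library.

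Hoxc13 had the strongest peak of HoxC (chr15:102920485-102922269), at 800.0 normalized reads in the ablation library and 917 in the control library. Its ratio was 0.873 (0.800 to 0.951), so the start of the hair and nail gene was lower in the ablation library on the deposited scale; it was 0.689 when divided by the table total and 0.929 when divided by the nuclear total. The peak over Hoxc5 and Mir615 (chr15:103013961-103016002) had 607 in the ablation library and 531 in the control library, a ratio of 1.14 (1.03 to 1.27), and 0.903 by the table total. The peak at Hoxc4 had 291 in the ablation library and 342 in the control library. HoxC thus held strong peaks at both of its ends.

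In HoxA a strong peak at no gene start, between Hoxa7 and Hoxa9 (chr6:52221502-52222493), had 467 normalized reads in the ablation library and 408 in the control library. The peak that holds Mir196b (chr6:52229422-52230273) had 320.2 in the ablation library and 243 in the control library, a ratio of 1.32 (1.13 to 1.53) on the deposited scale. These peaks lie on either side of Hoxa9.

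HoxB peaks were weaker by median mean signal, at 64.0 normalized reads against 81.4 in HoxC, 95.2 in HoxD and 125 in HoxA. Per kb of peak the HoxB median was 120, against 117 in HoxC, so they were not weaker than HoxC peaks by that measure. The strongest HoxB peak lay at Hoxb9, with 358 normalized reads in the ablation library and 329.6 in the control library. A peak of 3060 bases over Hoxb7 and the end of Hoxb8 had 295 in the ablation library and 248 in the control library. The Hoxb4 peak had 254 in the ablation library and 248 in the control library. None of the 3 reached the signal of the strongest peak given above for another cluster in either library.

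Summed over all 4 windows, the signal was 13581 normalized reads in the ablation library and 13215 in the control library, a ratio of 1.03 (1.006 to 1.05), which becomes 0.812 when divided by the table total and 1.09 by the nuclear total. All nuclear peaks gave 0.939. By cluster the ratio was 1.06 (1.01 to 1.10) for HoxA, 1.07 (1.02 to 1.12) for HoxB, 0.984 (0.945 to 1.02) for HoxC and 1.01 (0.967 to 1.06) for HoxD, and all 4 fell under 1 by the table total and lay above 1 by the nuclear total, at 1.05 to 1.14. The clusters as wholes therefore differed little between the libraries, and the side of 1 depended on the scaling.

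Of the 93 window peaks 91 had a mean signal of at least 13.96 normalized reads, the 10th percentile of nuclear peaks, and entered the comparison with 76147 peaks over the genome. Their median log2 ratio of ablation to control, with 1 added to each value, was 0.04, against −0.01 for all. Values were above 0 for 52 peaks and below 0 for 39, which is 57.1% above 0, against 48.7% of all. Dividing by the table total turned this to 18 above and 73 below, which is 19.8% above 0, against 23.7% of all. Dividing by the nuclear total gave 60 above and 31 below, which is 65.9% above 0, against 57.9% of all. The Hox median stood 0.05 above the median of all peaks, a gap that scaling by 1 factor per library leaves as it is by construction, and it was also 0.05 after a loess correction on signal.

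At least 2-fold higher signal in the ablation library was seen at 1 of the 91 Hox peaks, which is 1.10%, against 4.48% of all peaks compared. At least 2-fold lower signal was seen at 0 of the 91, against 1.88% of all. Divided by the table total, 0 were higher and 2 lower. At a fold of 1.5 in either direction, 9 of the 91 differed by that much (9.89%, against 20.5% of all), of which 7 were higher and 2 lower. That split turned with the scaling, to 1 higher and 16 lower by the table total, 9 higher and 2 lower by the nuclear total, and 5 higher and 6 lower after the loess correction. These shares depend on signal, and the Hox peaks are strong: among all peaks of at least 50 normalized reads, a value picked after the data were seen, 1.06% were 2-fold higher and 0.562% 2-fold lower. Of the 64 Hox peaks of that strength 1 was 2-fold higher and 0 lower, a share near that of peaks of like signal. Among all peaks under 50 normalized reads, 9.33% were 2-fold higher and 3.75% 2-fold lower, while 0 of the 27 such Hox peaks compared were past 2-fold in either direction.

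**Figure D2:**
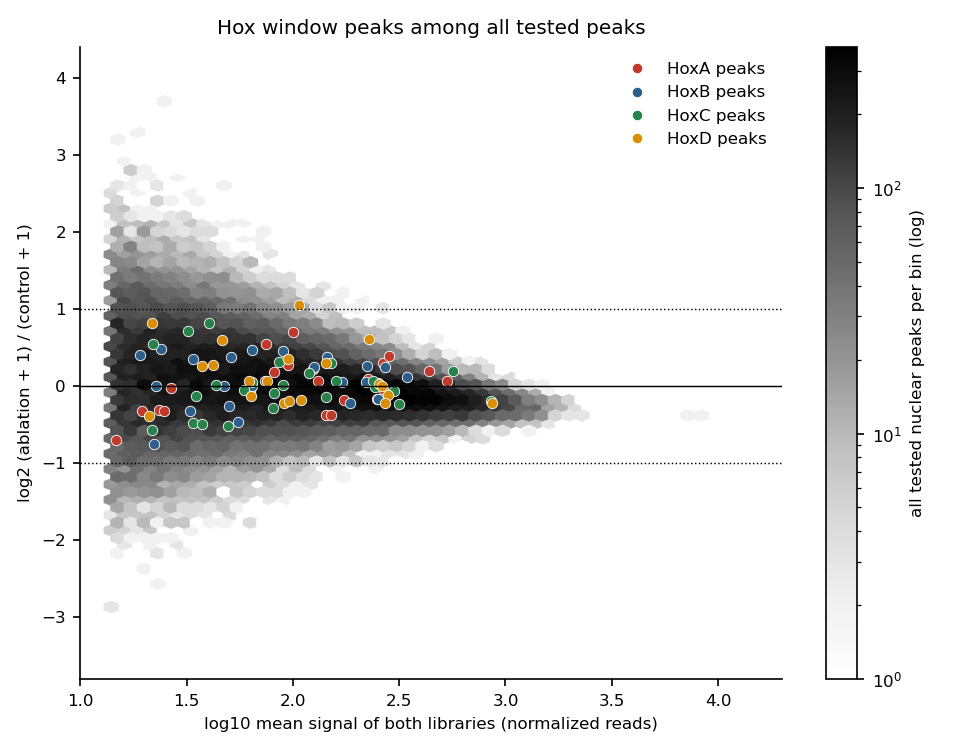
Log2 ratio of ablation to control (with 1 added to each value) against the log10 mean signal of both libraries in normalized reads, with all 76147 peaks compared as grey bins (log colour scale) and the 91 Hox peaks as dots coloured by cluster; dotted lines mark 2-fold. Hox dots lie within the cloud of all peaks, and 1 dot of HoxD lies above the upper dotted line.

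The peak past 2-fold lay in HoxD between Hoxd8 and Hoxd3 (chr2:74708625-74709116), in the predicted gene Gm38462 and 2877 bases from the Hoxd3 start. It had 144 normalized reads in the ablation library, from 159 reads, and 69.2 in the control library, from 98 reads. The ratio was 2.09 (1.61 to 2.71). No Hox start lies within 1 kb of it. Just under the fold stood a peak between Hoxd13 and Hoxd12 (chr2:74672878-74673216), with 28.1 in the ablation library and 15.5 in the control library, and the Hoxc8 start, with 51.7 in the ablation library and 28.9 in the control library.

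A pair of peaks, both in HoxB, was too weak to be compared. The peak inside Hoxb8 (chr11:96279539-96279812) had 18 reads in the ablation library and 5 in the control library, a ratio of 4.63 with the wide interval of 1.66 to 15.9. The peak at chr11:96203463-96203607, between Hoxb13 and Hoxb9, had 5 reads in each library. Both intervals are too wide to place these peaks among the others.

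At the low end, Hoxb5 had the lowest log2 ratio of HoxB and of all Hox peaks compared, −0.75, with 16.3 normalized reads in the ablation library and 28.2 in the control library (ratio 0.578, 0.312 to 1.03). The lowest of HoxC lay between Hoxc9 and Hoxc8 (chr15:102987421-102987793), with 17.2 in the ablation library and 26.1 in the control library. In HoxD it lay 4446 bases from Hoxd13, with 18.1 in the ablation library and 24.0 in the control library. All 3 are weak peaks, and their intervals include 1.

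The intervals of single peaks can be counted in the same way. They lay wholly above 1 at 19 of the 93 window peaks, which is 20.4%, against 15.2% of all nuclear peaks, and wholly below 1 at 6, which is 6.45%, against 17.2%. The other 68 included 1. Divided by the table total the counts were 3 above and 38 below, against 5.27% and 41.5% of all nuclear peaks. Divided by the nuclear total they were 24 above and 1 below, against 20.2% and 11.4% of all.

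**Figure D3:**
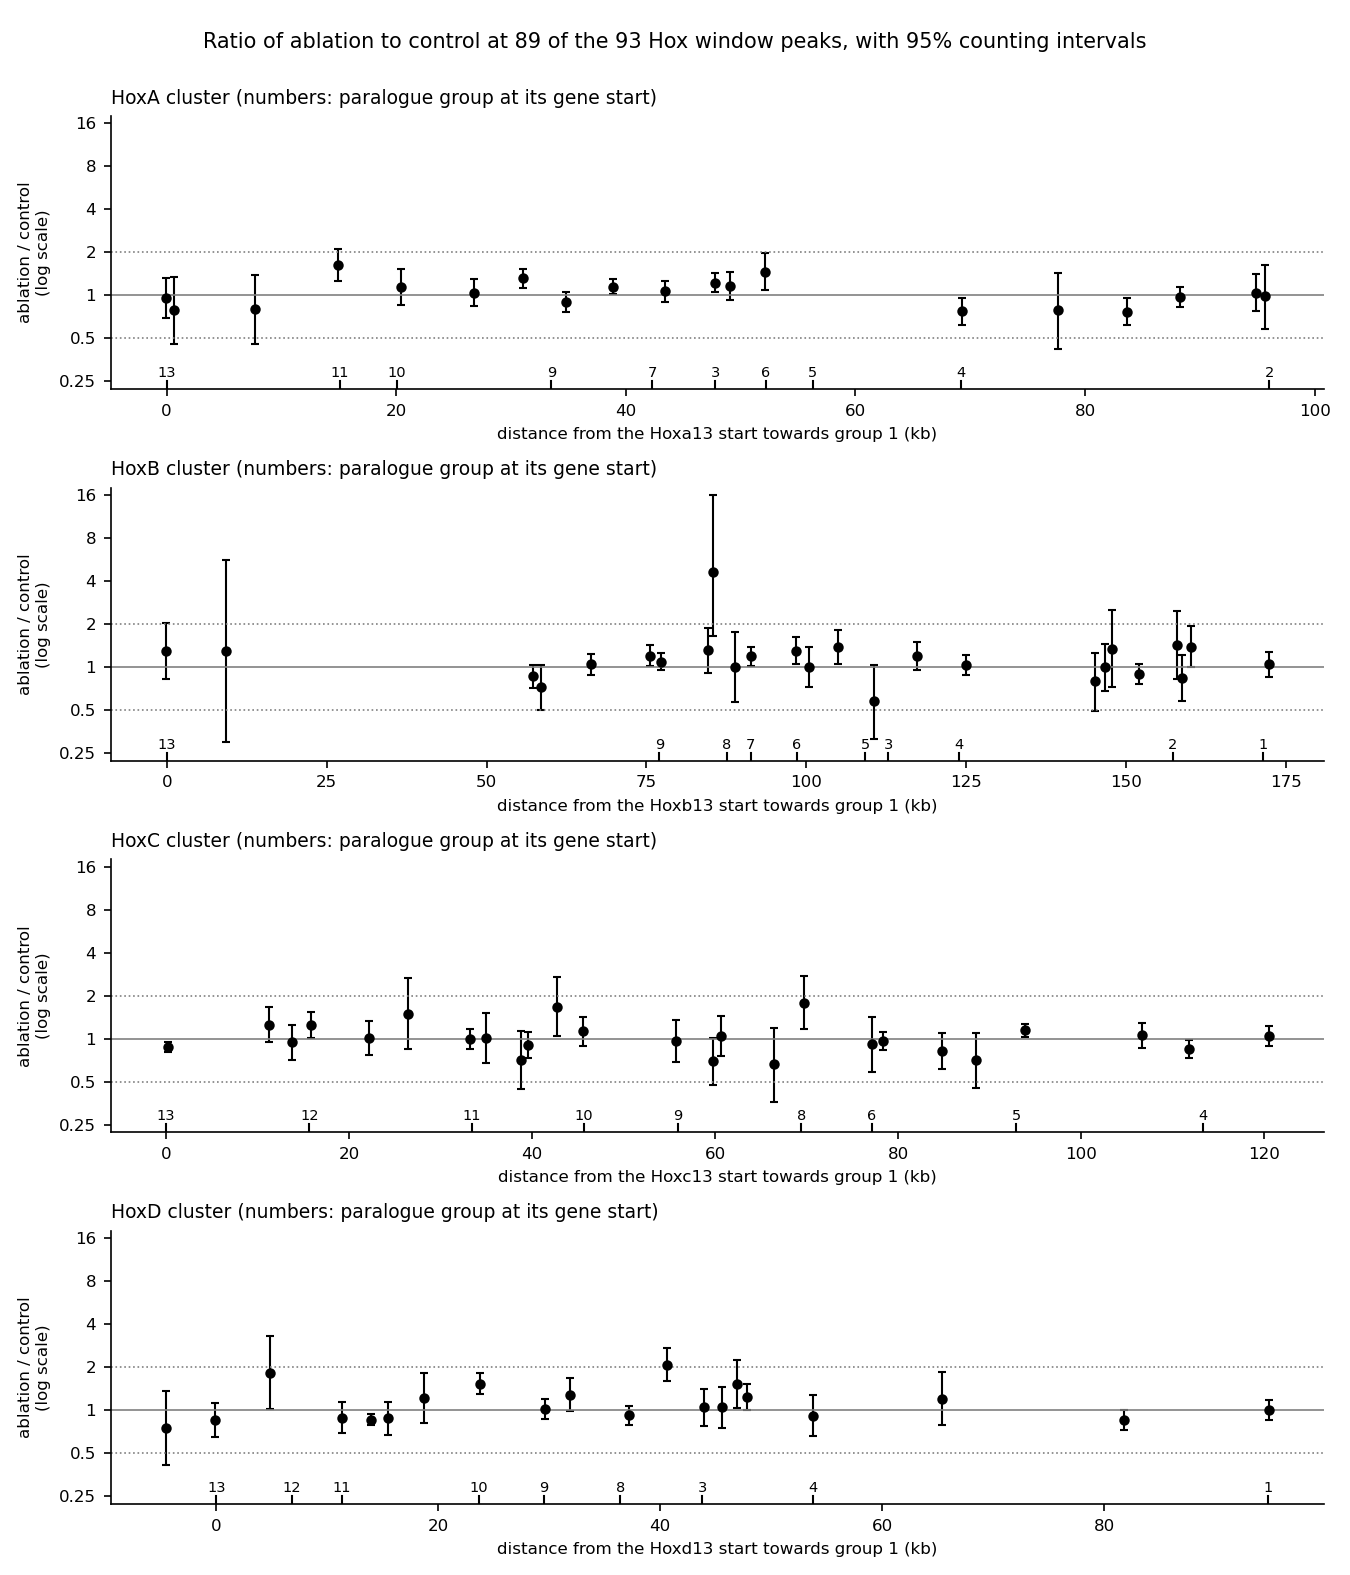
Ratio of ablation to control signal (log axis) for 89 of the 93 Hox window peaks by distance from the group 13 gene start of its cluster (kb), with 95% intervals of the read counts as bars; the solid line is a ratio of 1 and dotted lines mark 2-fold. Most intervals include 1; in HoxD the peaks around the group 11 tick lie under the line and most peaks from the group 10 tick to the group 3 tick lie on or above it, on the deposited scale.

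Runs of neighbouring peaks lay on the same side of 1. The runs were drawn after the values were seen, low neighbours apart from high ones, so the contrast between runs was fixed by that choice and their sums are a description only. In HoxD the first 3 of the 4 peaks that overlap Hoxd11 (chr2:74679408-74683804) summed to 993 normalized reads in the ablation library and 1152 in the control library, a ratio of 0.862 (0.798 to 0.932). The fourth Hoxd11 peak, a weak one that also overlaps Hoxd10 (chr2:74686900-74687056), went the other way, with 46.3 in the ablation library and 38.1 in the control library, a ratio of 1.21 (0.811 to 1.81), and is in neither run. The 9 peaks that follow it, from Hoxd10 to Hoxd3os1 (chr2:74691306-74716253), summed to 1408 in the ablation library and 1176 in the control library. Their ratio was 1.20 (1.12 to 1.28), with 8 of 9 above 1 on the deposited scale. By the table total both runs were under 1, at 0.681 for Hoxd11 and 0.945 for Hoxd10 to Hoxd3os1.

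HoxA showed a like division. The 4 peaks from the long Hoxa3 transcript to Hoxa4 (chr6:52172132-52192410) summed to 534 normalized reads in the ablation library and 622 in the control library, all 4 below 1, with a ratio of 0.858 (0.772 to 0.954). The 10 peaks from Hoxa6 to Hoxa11 (chr6:52208569-52246776) summed to 2118 in the ablation library and 1829 in the control library. Their ratio was 1.16 (1.09 to 1.22), with 9 of 10 above 1 and the Hoxa9 peak below. By the table total both runs were under 1, at 0.678 for Hoxa3 to Hoxa4 and 0.915 for Hoxa6 to Hoxa11. The empty Hoxa5 start lies between them.

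In HoxB the 2 low peaks of the 3 that overlap Gm53, upstream of Hoxb9 (chr11:96251005-96253010), summed to 218 normalized reads in the ablation library and 264 in the control library, a ratio of 0.825 (0.698 to 0.973). The third Gm53 peak (chr11:96260181-96260962), stronger than either, had 225 in the ablation library and 216 in the control library, a ratio of 1.04 (0.877 to 1.24). The 9 peaks from Hoxb9 to Hoxb6 (chr11:96269220-96299532) were all above 1 on the deposited scale. They summed to 1326 in the ablation library and 1116 in the control library, a ratio of 1.19 (1.11 to 1.28) as deposited and 0.938 by the table total. In HoxC the 3 peaks from Hoxc12 to Hotair, the non-coding RNA gene studied in human skin fibroblasts, summed to 284 in the ablation library and 242 in the control library, a ratio of 1.17 (1.003 to 1.37) as deposited and 0.926 by the table total. The 4 peaks of the Hoxc6 transcript were all below 1 as deposited, with 428 in the ablation library and 473 in the control library and an interval of 0.803 to 1.02 that includes 1.

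Gene starts were read for each of the 39 genes as the peaks within 1 kb of the start. For 22 genes the start came from the promoter table, and for the other 17 either end of the gene was used. A peak was present at 35 genes in all, of which 34 had one at the 5′ end by the strand of the cluster. None was found at Hoxa5, which patterns the lung and the neck, Hoxb3, Hoxb8, whose loss in mice leads to excessive grooming, or Hoxd12. Away from the start, 6 peaks overlapped Hoxb3, which was read at the ends of a long gene, and 3 overlapped Hoxb8. No peak overlapped Hoxa5 or Hoxd12. HoxA had a start peak at 10 of 11 genes, HoxB at 8 of 10, HoxC at 9 of 9 and HoxD at 8 of 9. The Hoxb5 peak lies inside the gene, 1132 bases from the 5′ end, and counts only as within 1 kb of the other end. Of the 3 Hoxb2 peaks 1 lies at the 5′ end, as does 1 of the 2 Hoxc11 peaks. For all other genes every peak read does. Open starts were thus found from group 1 to group 13, at both ends of the body axis code.

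Levels at starts are compared per kb of peak. Among the anterior genes, of groups 1 to 3, Hoxd1 had 295 normalized reads per kb in the ablation library and 294 in the control library. Hoxa3, needed for the thymus and parathyroid, had 257 in the ablation library and 213 in the control library at the start of its long transcript, near Hoxa6. Both were more open than the other anterior starts given here, in both libraries. Hoxb1, which sets hindbrain segment identity, had 212 in the ablation library and 203 in the control library. Hoxa2, the selector gene of the second branchial arch, had 165 in the ablation library and 160.4 in the control library. Hoxd3 had 120.3 in the ablation library and 114 in the control library. Hoxb2 had the lowest of these levels, 86.6 in the ablation library and 74.8 in the control library over both ends of the gene. At its 5′ end alone it had 46.1 in the ablation library and 32.4 in the control library. Summed over the anterior starts the ratio was 1.07 (1.01 to 1.13), and 0.844 by the table total.

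The central genes, of groups 4 to 8, which shape the neck and trunk, were ordered differently in each cluster. In HoxC, Hoxc5 had 297 normalized reads per kb in the ablation library and 260.0 in the control library. Hoxc4 had 266 in the ablation library and 313 in the control library. Hoxc6 had 190 in the ablation library and 199 in the control library. These were the 3 high central starts of HoxC, with Hoxc4 above Hoxc5 in the control library and below it in the ablation library. Hoxc8, which acts in thoracic vertebrae and forelimb motor neurons, had only 99.8 in the ablation library and 55.9 in the control library. Its ratio of 1.79 (1.18 to 2.74) was the highest of the 35 genes and rests on 57 reads in the ablation library and 41 in the control library.

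In HoxA, Hoxa7 had 294 normalized reads per kb in the ablation library and 276 in the control library. Hoxa6 had 264 in the ablation library and 180.1 in the control library, with a ratio of 1.46 (1.09 to 1.98). Hoxa4 had 79.4 in the ablation library and 103 in the control library, with a ratio of 0.770 (0.622 to 0.950). Thus Hoxa6 and Hoxa4, on either side of the empty Hoxa5 start, lay on opposite sides of 1 on the deposited scale and by both other scalings. In HoxD, Hoxd8 had 191 in the ablation library and 207 in the control library. Hoxd4 had 124 in the ablation library and 136 in the control library.

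HoxB central starts were low. Hoxb4, which can expand blood stem cells, had 125 normalized reads per kb in the ablation library and 122 in the control library. Hoxb7 had 96.3 in the ablation library and 80.9 in the control library. Hoxb6 had 95.6 in the ablation library and 73.5 in the control library. All 3 were above 1 on the deposited scale, and by the table total Hoxb6 alone of them stayed above 1, at 1.03. Hoxb5 had no peak within 1 kb of its 5′ end. Its peak inside the gene had 33.6 in the ablation library and 58.1 in the control library. Over the central starts the ratio was 1.03 (0.984 to 1.08).

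Among the posterior genes, of groups 9 to 13, which act in the lower trunk, limbs and genital tract, Hoxd11 was the highest, with 587 normalized reads per kb in the ablation library and 682 in the control library. Hoxc13 was next, with 448 in the ablation library and 514 in the control library. Hoxa9, a gene of blood progenitors, had 355 in the ablation library and 397 in the control library. These 3 were the most open posterior starts, and all had ratios under 1, as deposited and by both other scalings. Hoxb9 had 236 in the ablation library and 209 in the control library. Hoxd10 had 193 in the ablation library and 127 in the control library, and its ratio of 1.53 (1.29 to 1.81) rests on 305 reads in the ablation library and 257 in the control library. Hoxd10 was the only start whose interval lay above 1 under all 3 scalings.

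Further posterior starts were of middle or low level. Hoxd9 had 168 in the ablation library and 165 in the control library, per kb. Hoxa10, which acts in the uterus and lumbar spine, had 138 in the ablation library and 128 in the control library. Hoxc11 had 137 in both libraries. These 3 differed little between the libraries. Hoxc10 had 115 in the ablation library and 102 in the control library. Hoxc12 had 111 in the ablation library and 89.3 in the control library. Hoxa11, needed for the forearm and kidney, had 77.6 in the ablation library and 47.6 in the control library, with a ratio of 1.63 (1.26 to 2.12). Hoxa11 and Hoxd11, paralogues in the same structures, thus lay on opposite sides of 1 under all 3 scalings.

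The starts of group 13 other than Hoxc13 and that of Hoxc9 were among the lowest. Hoxa13, a gene of digits and genitalia, had 82.1 in the ablation library and 90.3 in the control library, per kb. Hoxb13, known for the prostate, had 60.5 in the ablation library and 47.0 in the control library. Hoxc9 had 54.3 in the ablation library and 56.1 in the control library. Hoxd13, a digit gene, had 51.6 in the ablation library and 60.2 in the control library. Hoxc13 was thus the most open start of its group in both libraries by a wide margin. Over the posterior starts the ratio was 0.993 (0.956 to 1.03).

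**Figure D4:**
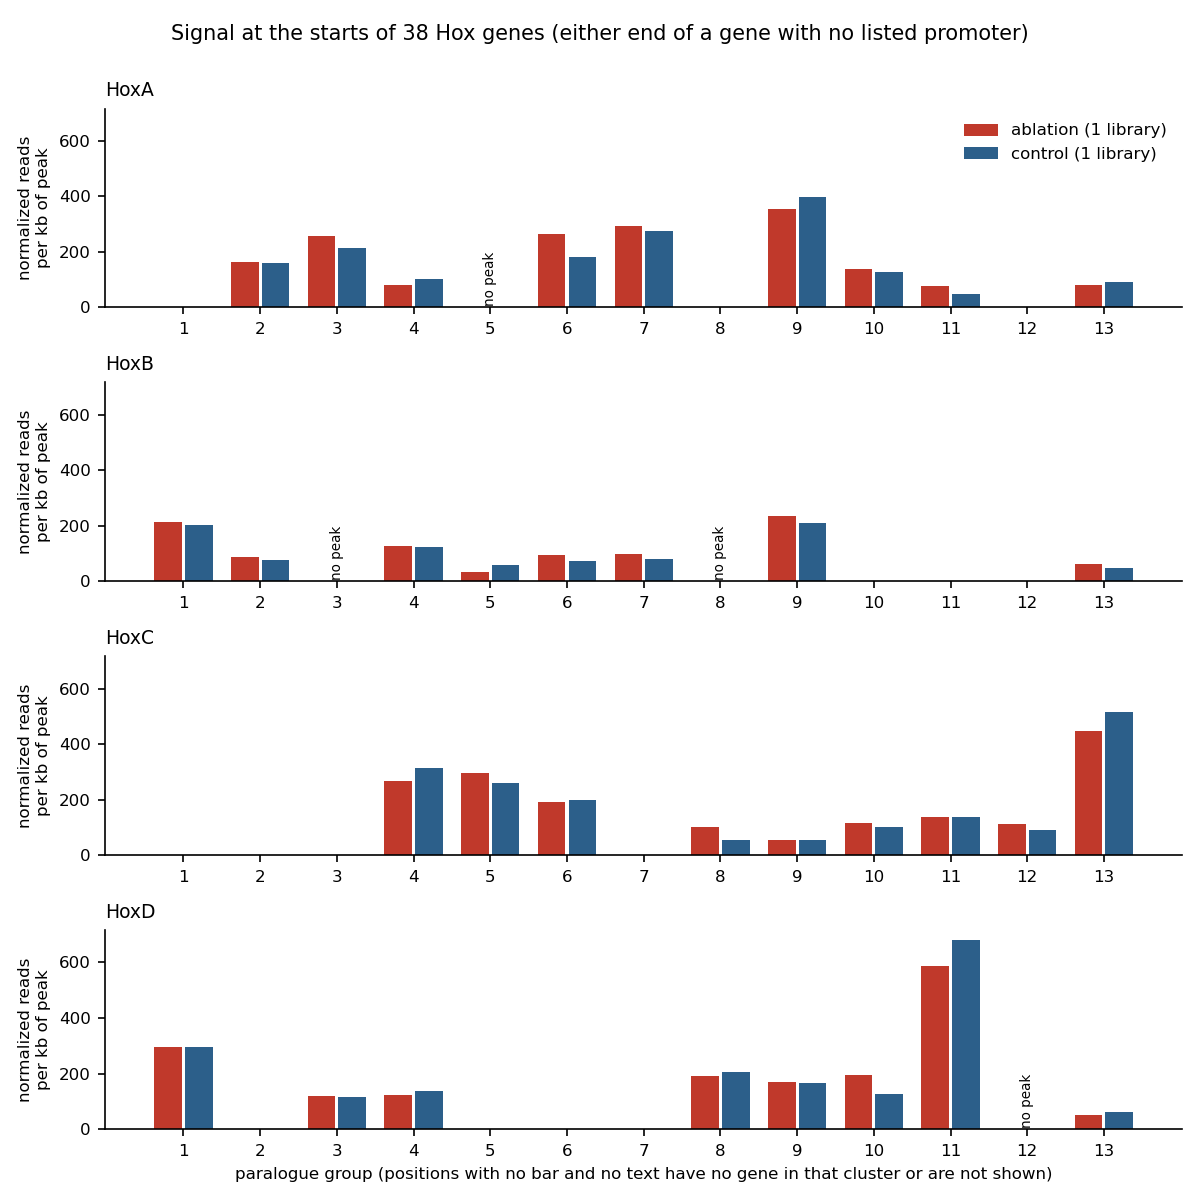
Signal at the starts of 38 Hox genes in normalized reads per kb of peak, by paralogue group and cluster, with the ablation library in red and the control library in blue; genes with no peak at the start are marked and positions without a bar or mark have no gene or are not shown. Hoxd11 and Hoxc13 stand above all others shown, and Hoxa5, Hoxb3, Hoxb8 and Hoxd12 have no peak. The Hoxb5 bars are a peak inside that gene, within 1 kb of its other end but not of its 5′ end.

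Across the 35 genes the ratio was above 1 at 22 and below 1 at 13, with a median of 1.03 and a range of 0.578 to 1.79. Of all protein-coding genes, valued over the whole gene and 1 kb either side, 37.9% had a log2 ratio above 0. Read at the 5′ end alone the Hox ratio was above 1 at 22 genes and below 1 at 12, with a range of 0.770 to 1.79. Divided by the table total the ratio of the 35 genes was above 1 at 6 and below 1 at 29. Of all protein-coding genes, valued over the gene and 1 kb either side, 10.1% were then above 0 in log2 ratio. By the nuclear total the ratio of the 35 genes was above 1 at 25 and below 1 at 10, against 53.9% of all genes above 0. The interval lay above 1 at 10 starts (Hoxa3, Hoxa6, Hoxa11, Hoxb6, Hoxb7, Hoxb9, Hoxc5, Hoxc8, Hoxc12 and Hoxd10) and below 1 at 4 (Hoxa4, Hoxc4, Hoxc13 and Hoxd11), and it included 1 at the other 21. The same genes are named at the 5′ end alone. Of the 47 single peaks at these starts the interval lay above 1 at 11, which is 23.4%, against 10.8% of all 15291 nuclear peaks at ends of protein-coding genes, and below 1 at 4, which is 8.51%, against 25.0%. These shares are not at like signal. The median mean signal was 131 normalized reads at the 47 peaks and 214 at the gene-end peaks, whose summed ratio was 0.918. The 10 starts above 1 come from all 4 clusters and from groups 3 to 12. By the nuclear total the same 10 were above and Hoxd11 alone was below, and by the table total Hoxd10 alone was above and 18 were below. Over all single nuclear peaks, the interval lay above 1 at 20.2% and below 1 at 11.4% by the nuclear total. By the table total these shares were 5.27% and 41.5%.

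Paralogue groups were summed across clusters. Group 10, with Hoxa10, Hoxc10 and Hoxd10, had the highest ratio, 1.25 (1.13 to 1.39), with all 4 of its peaks above 1 on the deposited scale and a summed ratio of 0.989 by the table total. Group 13 had the lowest, 0.885 (0.819 to 0.956), and most of its signal is the Hoxc13 peak. Group 4 followed at 0.892 (0.814 to 0.976), with 3 of 4 peaks below 1. Group 3 gave 1.18 (1.05 to 1.33) as deposited and 0.933 by the table total. Most of its signal is at Hoxa3, and Hoxd3 alone gave 1.05 (0.779 to 1.41). In group 10 the interval of the gene lay above 1 at Hoxd10 only. Hoxa10 gave 1.08 (0.908 to 1.29) and Hoxc10 gave 1.12 (0.887 to 1.42). The sums differ between paralogue groups by more than their counting intervals, with no steady order along the body axis.

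Beyond the windows, 43 of the 54 flank peaks were strong enough to compare. Their median log2 ratio was 0.23 on the deposited scale, and it was −0.11 by the table total. At least 2-fold higher signal was seen at 4 of the 43, which is 9.30%, against 4.48% of all peaks compared, and 2-fold lower signal at 0, against 1.88%. Among flank peaks under 50 normalized reads 2 of 24 were 2-fold higher, which is 8.33%, against 9.33% of all peaks of that strength, and among stronger ones 2 of 19, against 1.06%. The flank peaks were weaker than the Hox peaks, with median signals of 34.5 in the ablation library and 32.1 in the control library. The 4 higher peaks were chr6:52270491-52270741, just outside HoxA on the Hoxa13 side, with 28.1 in the ablation library and 7.76 in the control library, chr11:96124253-96124906 with 112 in the ablation library and 54.3 in the control library, chr11:96177518-96177829 with 22.7 in the ablation library and 9.88 in the control library, and chr15:103090017-103090728 with 89.8 in the ablation library and 33.9 in the control library. In the other direction, the peak at chr11:96383072-96384043, beyond Hoxb1, had 238 in the ablation library and 450.2 in the control library, a ratio of 0.528 (0.455 to 0.610). The strongest flank peak lay beside HoxD (chr2:74578241-74579410), with 722 in the ablation library and 806 in the control library.

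Genes of 5 lists related to the Hox genes, some of which work with or upstream of them, were valued by their peaks. These were the peaks over each gene and within 1 kb of it. For the Hox genes valued this way, 37 of 39 had a peak that could be compared, the median log2 ratio was 0.07 and 25 of 37 were above 0, against a median of −0.07 and 37.9% above 0 for all 15466 protein-coding genes with such a peak. By the table total the Hox median was −0.27 with 5 of 37 above 0, against −0.41 and 10.1% for all, and by the nuclear total it was 0.16 with 27 of 37 above 0, against 0.02 and 53.9%. The medians of the 5 other lists were below 0 by the table total. The list of TALE cofactors held TALE homeodomain genes, among them those whose proteins bind DNA together with Hox proteins. Tgif1 and Tgif2 are in it as TALE genes only. The list had a peak at 11 of 11 genes, a median of −0.0049 and 5 genes above 0. Tgif2 was the highest at 0.32, with 749 normalized reads in the ablation library and 602 in the control library, and Meis3 followed at 0.28, with 19.0 in the ablation library and 15.5 in the control library. Pknox1 was the lowest at −0.30, with 964 in the ablation library and 1190 in the control library, and Pbx4 came next at −0.17, with 1126 in the ablation library and 1268 in the control library. The genes of this list were spread on both sides of 0.

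The list of upstream regulators held Cdx factors, retinoic acid receptors and enzymes, and Polycomb and trithorax genes, among others. It had a peak at 14 of 17 genes and a median of −0.01, with 7 above 0. Cdkn2a, at 0.099, was in the list without being a known regulator of Hox genes. Cyp26c1, an enzyme that breaks down retinoic acid, was the highest at 1.48, from only 28 reads in the ablation library and 12 in the control library. Cdx2, an activator of posterior Hox genes, followed at 0.41, with 209 normalized reads in the ablation library and 157 in the control library. Bmi1, a Polycomb protein, was the lowest at −0.38, with 285 in the ablation library and 369.8 in the control library. Kmt2a, the trithorax methyltransferase MLL, came next at −0.20, with 616 in the ablation library and 707 in the control library. No peak that could be compared was found at Cdx1, Cdx4 or Cyp26a1.

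Other transcription factors of position, such as the limb and dorsoventral genes, had a peak at 13 of 16 genes and a median of 0.03, with 8 above 0. Evx2, which lies beside HoxD, was the highest at 0.33, with 89.8 normalized reads in the ablation library and 71.3 in the control library, and Tbx18 followed at 0.31, with 80.7 in the ablation library and 64.9 in the control library. Msx2 was the lowest at −0.36, with 425 in the ablation library and 548 in the control library, and Tbx3 came next at −0.30, with 774 in the ablation library and 955 in the control library. No peak that could be compared was found at Alx4, at the hindlimb gene Tbx4 or at the forelimb gene Tbx5.

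Homeobox genes of other clusters had a peak at 22 of 25 genes and a median of 0.01, with 12 above 0. Nkx2-9 was the highest at 0.72, with 47.2 normalized reads in the ablation library and 28.2 in the control library, and Nkx2-5 followed at 0.44, with 28.1 in the ablation library and 20.5 in the control library. Dlx4 was the lowest at −0.38, with 521 in the ablation library and 676 in the control library, and Dlx2 came next at −0.31, with 883 in the ablation library and 1095 in the control library. The high values named here come from weak peaks and the low values from strong ones. No peak that could be compared was found at Six3, Six6 or Tlx1.

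The non-coding RNA and microRNA genes of the Hox clusters had a peak at 10 of 14 genes and a median of 0.16, with 8 above 0 on the deposited scale; the median was −0.18 by the table total. Their peaks are window peaks, many of them shared with a Hox gene, so the list adds no separate signal. Hoxa11os was the highest at 0.70 through the Hoxa11 peak. Hoxd3os1 followed at 0.44, with 499.8 normalized reads in the ablation library and 368 in the control library, a sum that includes the peak past 2-fold. Haglr was the lowest at −0.11, with 512 in the ablation library and 553 in the control library, and Hoxb3os came next at −0.01, with 405 in the ablation library and 409 in the control library. No peak that could be compared was found at Hottip, Mir10b, Mir196a-1 or Mir196a-2.

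**Figure D5:**
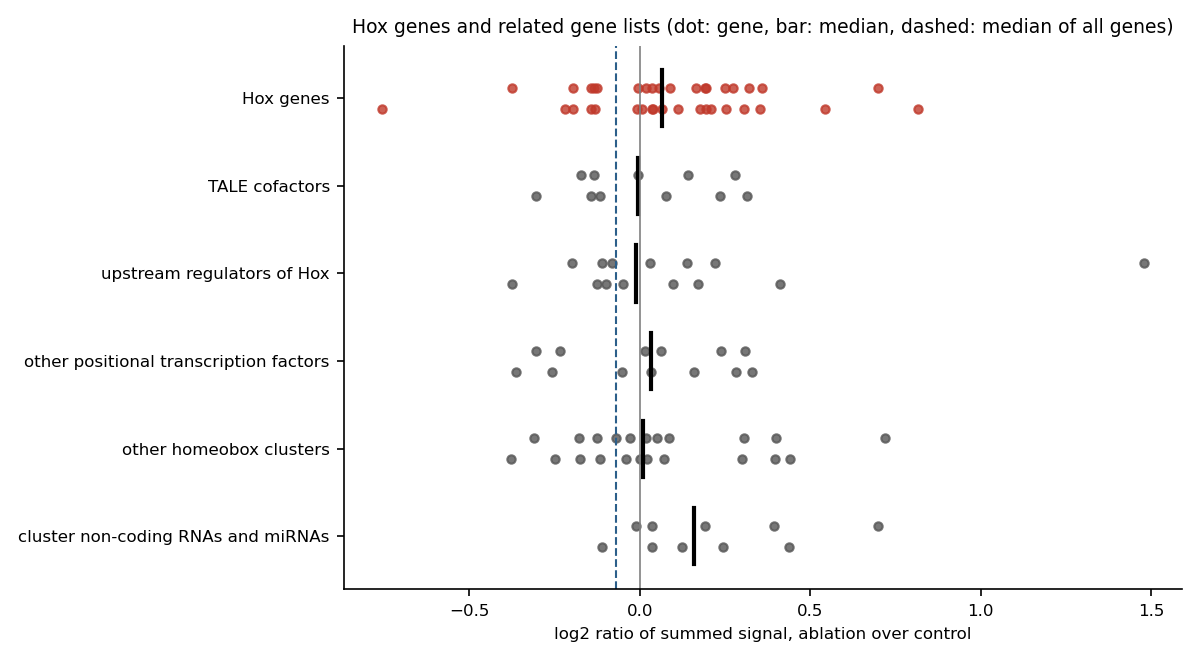
Log2 ratio of ablation to control of the summed signal of each gene (dots) for the Hox genes and 5 related lists, with list medians as black bars and the median of all protein-coding genes as a dashed line at −0.07. The Hox genes lie on both sides of 0 with a median of 0.07 on the deposited scale, and Cyp26c1 is the dot at 1.48.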

How the data were processed

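ATAC-seq was measured in 2 libraries of sorted mouse basal epidermal cells. Tools named in the submitters' processing notes are MACS2 2.1.0.20151222 and Bowtie2 2.3.4.2 as well as HTSeq, Picard and Trimmomatic, with build mm10; settings and the choice of peaks are not stated there. The deposited data are 1 table of normalized signal made by the authors, given per peak and library. Its control column was matched by the word CTRL, although its replicate number differs from that in the sample's title, the other column (Exp) was taken as ablation by elimination, and 0 further columns were left unused. The base of its start coordinates (0 or 1) is unknown.

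Exact repeats among 116411 rows were merged, leaving 84594 peaks. The 3 mitochondrial peaks were left out. Values in each column came in steps of 1 read (tolerance 0.1 read), so whole reads were recovered. With 1 library per group no count test was possible. Ratios carry exact Clopper-Pearson intervals of reads, which treat PCR copies as independent. A count of 0 allows up to 2.72 normalized reads in ablation and 2.12 in control. Log2 ratios used a pseudocount of 1, and peaks under the 10th percentile of mean signal were not compared. The steps were tested on simulated reads.

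Gene positions, promoters and microRNAs came from RefSeq (GRCm38.p6), matched by symbol. Peaks in full are those past 2-fold and, per cluster, the 3 strongest, the highest and the lowest ratio; of each list the 2 highest and 2 lowest genes are named. Members and lists were chosen with earlier results of these data known, and runs of peaks, other named peaks and most printed promoters after values were seen. Promoters of Hoxb9 and Hoxc13 are not shown. The start of 1 Hox gene and the 4 peaks nearest to it are not reported here; they stay in the sums, medians and counts. Alternatives covered pseudocount, filter, scaling, loess, fold, repeated rows, flank width and start width. The software was Python 3.11.15 with matplotlib 3.10.9, statsmodels 0.14.6, scipy 1.17.1, pandas 2.3.3 and numpy 2.4.6.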

Additional observations from a re-analysis of the deposited data

How the results depend on the processing

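Of 108 recomputed values 63 moved by no more than a tolerance (for counts, stayed within 1.5 times) and 45 moved further. The tolerance was the log2 half-width of the counting interval of the summed reads of the same peaks. It was used for medians too, and it is not an interval of a median. Scaling moved the most. Divided by the table total, which includes mitochondrial reads, the median log2 ratio was −0.30 for Hox peaks, −0.11 for flank peaks, −0.34 for TALE cofactors, −0.35 for upstream regulators, −0.30 for other positional factors, −0.33 for other homeobox clusters and −0.18 for cluster non-coding RNAs; summed ratios were 0.812 for all 4 clusters, 0.836 for HoxA, 0.847 for HoxB, 0.777 for HoxC, 0.798 for HoxD, and 0.806 for all starts, 0.844 for anterior, 0.815 for central and 0.785 for posterior starts; 0 Hox peaks were 2-fold higher and 2 lower. Divided by the nuclear total, the medians in the same order were 0.13, 0.32, 0.086, 0.081, 0.12, 0.10 and 0.25, and the ratios 1.09, 1.13, 1.14, 1.05, 1.08, 1.09, 1.14, 1.10 and 1.06. Both are changes of 1 factor per library by construction. A loess correction gave medians of 0.15 for flanks, 0.086 for TALE cofactors, 0.086 for upstream regulators and 0.080 for other homeobox clusters. A filter at the 25th percentile gave 0.13 for flanks, −0.10 for TALE cofactors and −0.048 for upstream regulators; the cause was not tested. Hox peaks 2-fold higher numbered 2 with no filter, which adds the weak Hoxb8 peak, and 3 with repeated rows kept; a fold of 1.5 gave 7 higher and 2 lower. Use of the 5′ end of each gene by strand, and of peaks first listed in the last of the table's 3 blocks alone, both added after the data were seen, moved no value past its tolerance. No paired analysis was possible because each group has 1 library, and no library could be left out. Depth limits the weak peaks, where intervals span more than 2-fold.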

Other observations

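The deposited table lists its peaks in 3 successive blocks, whose meaning is not given in the sources used here. Among all nuclear peaks first listed in the first block, 90.8% of those compared had a log2 ratio above 0, against 18.4% in the second block and 47.1% in the last. Of the 93 Hox window peaks 10 were first listed in the first block, 5 in the second and 78 in the last. The summed signal of the Hox peaks gave a ratio of ablation to control of 1.28 (1.09 to 1.49) in the first block, 0.754 (0.600 to 0.945) in the second and 1.03 (1.004 to 1.05) in the last. The blocks differ in ratio over all peaks, so these values describe the table and are no separate finding. The Hox peak past 2-fold, between Hoxd8 and Hoxd3, and the peaks at Hoxd11 and Hoxc13 were listed in the last block.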
